A study of Mus musculus with 22 samples.

Results

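Plasminogen activators and their inhibitors were followed in mouse granulation tissue as a list of 7 genes: Plau, Plat, Plaur, Serpine2, Serpinb2, Tfpi and Tfpi2. Members were all probe sets that the array annotation gives to 1 of these genes alone, which came to 11 of the 45037 probe sets tested and covered 6 of the 7 genes (18193 genes in all had a probe set of their own). Plau and Plat each had 2 probe sets, Tfpi had 4, and Plaur, Serpinb2 and Tfpi2 had 1 each. Serpine2 had none and was not analysed here. The values are log2 signals after robust multi-array averaging (RMA), a method that corrects, normalizes and summarizes the short probes of a probe set, so a step of 1 is a doubling of signal. Signals of different probe sets cannot be compared as amounts of RNA, and levels were therefore compared only within a probe set.

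Tissue had grown into a viscose cellulose sponge (VCS), a porous scaffold implanted under the dorsal skin, and RNA came from the ends of the sponge. The groups were Mmp13-/- mice, which lack the collagenase MMP-13 in the whole body, and WT mice bred from the same heterozygotes, backcrossed into C57BL6 by the design text though labelled as a mixed C57BL/6 and 129 background. All are labelled 5 to 8 weeks of age. The authors give age in describing the implantation, and tissue was taken 7, 14 or 21 d after it. Mmp13-/- tissue and WT tissue were each represented by 3 arrays at 7 d, 4 arrays at 14 d and 4 arrays at 21 d after implantation, 22 arrays in all, and the design text gives 1 sample from each mouse. The loss of MMP-13 was not limited to the sponge, and every mouse carried the implant, so there was no tissue without a wound.

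Array medians were 4.16 to 4.27 on the log2 scale, and within groups the arrays were alike (r = 0.977 to 0.996 over all probe sets). Mmp13 was lower on every Mmp13-/- array than on every WT array of its day, with group means of 8.37 against 10.69 at 7 d, 8.31 against 11.72 at 14 d and 7.91 against 11.17 at 21 d. The position of that probe set relative to the deletion is not given in the sources used here. Fibroblast markers averaged 10.96 or more and macrophage markers 10.15 or more on every array. Arrays were hybridized in 2 series. Series 1 (2 µg of RNA, one-cycle labelling) holds 12 arrays: the 7 d arrays, and at 14 d the Mmp13-/- and WT replicates 1 to 3. Series 2 (250 ng of RNA, 3' in vitro transcription kit) holds 10 arrays: the 21 d arrays, and at 14 d replicate 4 of Mmp13-/- and of WT tissue. Genotypes were thus balanced over the series, while the step from 14 d to 21 d is tied to the series except through the replicate 4 arrays. Each test below comes from 1 limma model with the 6 group means and the series as terms, and a call needs an adjusted p under 0.05 (Benjamini-Hochberg, over the whole table).

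Plasmin, the proteinase that dissolves fibrin and helps cells move through a provisional wound matrix, is made from plasminogen by 2 activators. Urokinase (Plau) acts mainly at the cell surface, where it is held by its receptor (Plaur), and tissue-type activator (Plat) acts mainly on fibrin. Serpinb2 encodes plasminogen activator inhibitor 2, an inhibitor of urokinase that stays largely inside cells and is known from activated macrophages and stressed keratinocytes. Serpine2 encodes protease nexin 1, which inhibits thrombin and the activators. The tissue factor pathway inhibitors are Kunitz-type inhibitors rather than serpins: Tfpi blocks factor Xa and the tissue factor complex that starts clotting, and Tfpi2 blocks plasmin and several other serine proteinases. Neither is a classical inhibitor of the plasminogen activators, so the list joins fibrinolysis and the start of coagulation.

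The promoters of Serpinb2 and Tfpi, the only members called between days, are shown because these genes moved in opposite directions over the same interval, Serpinb2 down in Mmp13-/- tissue and Tfpi up in WT tissue. Both sequences are RefSeq's for GRCm38.p6, 250 bases up to the first listed start of the gene, and capitals mark matches to 2 motifs searched on both strands. The first is TGANTCA, which binds AP-1 proteins of the Jun and Fos families. The other is TATAAA, the core of a TATA box, which cannot overlap the first.
Serpinb2, chr1:107511173-107511422, plus strand: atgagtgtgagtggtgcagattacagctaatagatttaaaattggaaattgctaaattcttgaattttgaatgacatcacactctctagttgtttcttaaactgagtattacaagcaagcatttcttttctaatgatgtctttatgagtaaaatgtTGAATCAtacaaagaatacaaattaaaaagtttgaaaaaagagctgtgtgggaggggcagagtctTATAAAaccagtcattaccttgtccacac
Tfpi, chr2:84476760-84477009, minus strand: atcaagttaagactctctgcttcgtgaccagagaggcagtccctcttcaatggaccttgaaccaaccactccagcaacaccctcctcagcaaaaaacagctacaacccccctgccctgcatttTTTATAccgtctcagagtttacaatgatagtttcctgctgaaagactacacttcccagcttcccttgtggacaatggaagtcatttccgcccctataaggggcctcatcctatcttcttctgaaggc
The Serpinb2 window held an AP-1 motif 94 bases before the start and a TATA box 29 bases before it. The Tfpi window held no AP-1 motif, and its TATAAA match lay on the opposite strand, 127 bases before the start. Of 32851 mouse promoters of this length, 6.75% held the AP-1 letters and 12.4% held TATAAA. The Plaur window also held an AP-1 motif, 69 bases before its start, and the Serpine2 window held neither motif. Tfpi2 has 3 listed starts: the windows of the first and the second held neither motif, and that of the third held an AP-1 motif 77 bases before the start. At the second Tfpi start neither motif was found. The window of the second Serpinb2 start held 1 match of each, AP-1 181 and TATAAA 116 bases before it. They lie the same distance apart as in the first window and may be the same sites. Such matches describe the letters and are not measured binding sites.

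**Figure D1:**
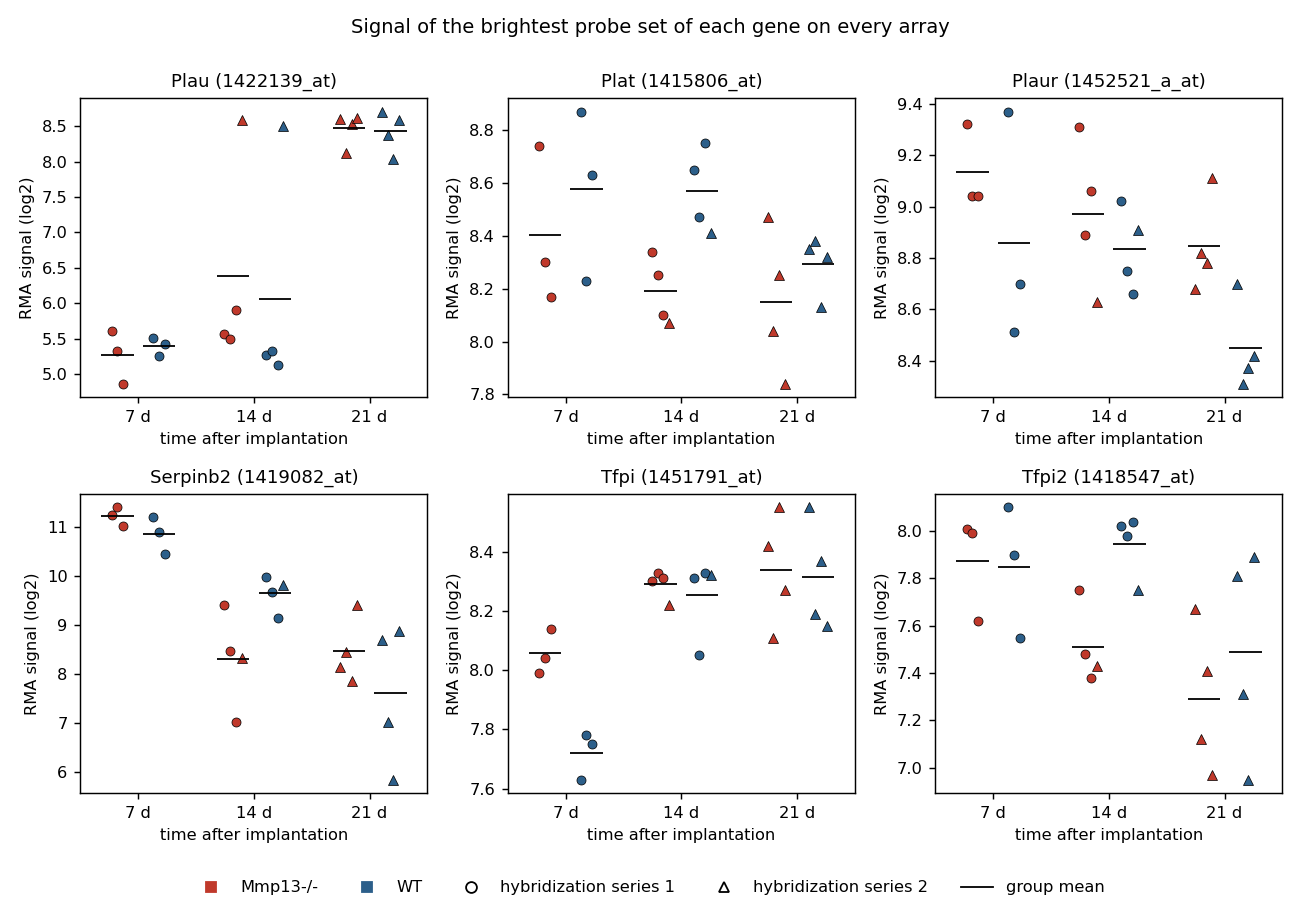
RMA signal (log2) of the brightest probe set of each gene on every array at 7, 14 and 21 d, with Mmp13-/- in red to the left of WT in blue, circles for hybridization series 1, triangles for series 2 and lines for group means. Plau read 8.04 or more on every series 2 array and 5.91 or less on every series 1 array, Serpinb2 was highest at 7 d, and the 3 Mmp13-/- arrays of Tfpi at 7 d lay above the 3 WT arrays.

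Urokinase signal followed the hybridization series. The brighter Plau probe set (1422139_at) read 5.61, 5.32 and 4.86 on the Mmp13-/- arrays and 5.51, 5.26 and 5.43 on the WT arrays of 7 d. At 14 d it read 5.56, 5.50 and 5.91 on the series 1 arrays and 8.59 on the series 2 array of Mmp13-/- tissue, against 5.27, 5.33 and 5.12 on the series 1 arrays and 8.51 on the series 2 array of WT tissue. At 21 d, all in series 2, it read 8.60, 8.13, 8.54 and 8.62 in Mmp13-/- tissue and 8.71, 8.38, 8.04 and 8.59 in WT tissue. The series did not overlap: series 1 ran from 4.86 to 5.91 and series 2 from 8.04 to 8.71, in both genotypes. The fitted shift of series 2 over series 1 was 3.10 (standard error 0.19, adjusted p = 1.55e-09 from limma), which ranked 1 from the top among all 45037 probe sets. The second Plau probe set (1422138_at) shifted the same way, by 1.22 (standard error 0.22, adjusted p = 0.000614), and ranked 53.

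A shift of this kind was common but seldom as large. The series term was called for 5985 probe sets, 13.3% of those tested, 2955 higher and 3030 lower in series 2. The median shift of all probe sets was 0.04, and 177 probe sets moved by over 2 in either direction. Among the members, 3 of 11 probe sets were called for the series: both of Plau and 1 of Tfpi (1452432_at), which was 0.56 lower in series 2 (difference -0.56, adjusted p = 0.0472).

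With the series in the model, Plau was not called between 14 d and 21 d. The difference of 21 d minus 14 d was -0.24 in Mmp13-/- tissue and 0.05 in WT tissue (95% intervals -0.70 to 0.21 and -0.41 to 0.50). Without the series term, a fit added after the values had been seen, the same differences were 2.08 (adjusted p = 0.0503) and 2.37 (adjusted p = 0.02). Within series 2, the 14 d arrays (8.59 in Mmp13-/- and 8.51 in WT tissue) lay inside the range of the 21 d arrays. For these 2 probe sets, day and labelling series cannot be told apart beyond what the replicate 4 arrays allow. Between genotypes, Mmp13-/- minus WT was -0.14 at 7 d, 0.33 at 14 d and 0.04 at 21 d for the brighter probe set, with an interval of -0.01 to 0.67 at 14 d, and no call was made.

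**Figure D2:**
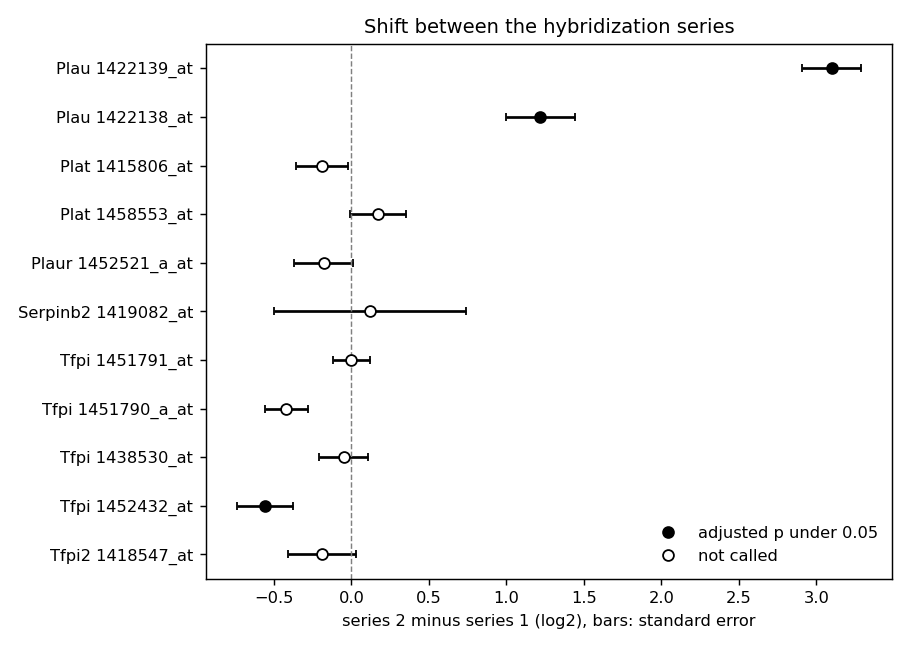
Fitted shift of hybridization series 2 over series 1 (log2, bars show the standard error) for the 11 member probe sets, with filled points called at an adjusted p under 0.05. The 2 Plau probe sets lie at 3.10 and 1.22, and the other 9 lie between -0.56 and 0.17.

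Tissue-type activator showed no such split. Its 14 d signal lay lower on every Mmp13-/- array than on any WT array, by a small amount that did not pass the test over all probe sets. At 7 d Plat (1415806_at) read 8.74, 8.30 and 8.17 in Mmp13-/- tissue and 8.87, 8.23 and 8.63 in WT tissue, and the groups overlapped. At 14 d it read 8.34, 8.25, 8.10 and 8.07 in Mmp13-/- tissue, against 8.65, 8.47, 8.75 and 8.41 in WT tissue. At 21 d the 4 Mmp13-/- arrays ran from 7.84 to 8.47 and the 4 WT arrays from 8.13 to 8.38. The highest Mmp13-/- array of 14 d thus lay below the lowest WT array of that day, and the groups overlapped again at 21 d.

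The 14 d difference in Plat was -0.38 (standard error 0.15, a 1.30-fold lower signal), with an unadjusted p of 0.0192 and an adjusted p of 0.999 from limma. An exact two-sided permutation test of the 4 against 4 arrays gave p = 0.0286, the smallest possible when the hybridization series is ignored. That test took no account of the series, which both groups of 14 d mix. Both series gave the same direction, with -0.39 within series 1 and -0.34 within series 2, where each genotype had 1 array. Averaged over the 3 days the difference was -0.23 (95% interval -0.42 to -0.04, adjusted p = 0.634). The second Plat probe set (1458553_at) was dim, with group means of 3.32 to 3.80, under the median of 4.22 of all probe sets, and differed by 0.01 at 14 d.

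The urokinase receptor Plaur (1452521_a_at) had a higher mean in Mmp13-/- tissue at each day, again with no call. It read 9.32, 9.04 and 9.04 in Mmp13-/- tissue and 9.37, 8.51 and 8.70 in WT tissue at 7 d. At 14 d the Mmp13-/- arrays read 9.31, 8.89, 9.06 and 8.63, and the WT arrays 9.02, 8.75, 8.66 and 8.91. At 21 d the Mmp13-/- arrays read 8.68, 8.82, 8.78 and 9.11, against 8.70, 8.31, 8.37 and 8.42 in WT tissue. At 21 d only 1 WT array, replicate 1, reached the lowest Mmp13-/- values.

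The Plaur difference at 21 d was 0.40 (standard error 0.17, 1.32-fold, unadjusted p = 0.0268, adjusted p = 0.352 from limma), and averaged over days it was 0.27 (95% interval 0.06 to 0.48, adjusted p = 0.613). By exact permutation of the 21 d arrays, p was 0.0571. Plaur kept a narrow range over time, from 8.31 to 9.37 over all arrays, and its day-to-day differences ran from -0.25 to 0.02.

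Serpinb2 varied most of all members and was highest in the youngest tissue. At 7 d its probe set (1419082_at) read 11.23, 11.39 and 11.01 in Mmp13-/- tissue and 11.19, 10.89 and 10.44 in WT tissue. At 14 d it read 9.40, 8.46, 7.03 and 8.32 in Mmp13-/- tissue, against 9.98, 9.66, 9.14 and 9.81 in WT tissue. At 21 d it read 8.15, 8.44, 7.85 and 9.41 in Mmp13-/- tissue and 8.70, 7.03, 5.85 and 8.87 in WT tissue. All later arrays lay below all 7 d arrays of either genotype, and at 14 d all Mmp13-/- arrays but replicate 1 lay below every WT array. In Mmp13-/- tissue the arrays of 14 d and 21 d covered much the same range, while in WT tissue the 21 d arrays all lay below the 14 d arrays.

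In Mmp13-/- tissue Serpinb2 fell by 2.94 on the log2 scale (limma difference -2.94, adjusted p = 0.0247, standard error 0.60), a 7.66-fold lower signal at 14 d than at 7 d. It was the only one of the 11 member probe sets called there. Of all probe sets, 0.628% were called in this comparison, 0.302% as lower. Within series 1 the difference was -2.91 (adjusted p = 0.0122). The call was lost without Mmp13-/- 7 d replicate 1, 2 or 3 (adjusted p = 0.115, 0.114 and 0.0591) and without Mmp13-/- 14 d replicate 2 or 3 (adjusted p = 0.0721 and 0.157), with differences of -3.04 to -2.43. It was also lost when only the arrays of both groups were fitted (adjusted p = 0.0567).

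In WT tissue the Serpinb2 difference was -1.22 from 7 d to 14 d (14 d minus 7 d, standard error 0.60, adjusted p = 0.523) and -2.13 for 21 d minus 14 d (standard error 0.71, adjusted p = 0.177), against 0.07 for 21 d minus 14 d in Mmp13-/- tissue (95% interval -1.42 to 1.56). Neither WT step was called. The genotype difference, Mmp13-/- minus WT, was 0.37 at 7 d, -1.34 at 14 d (standard error 0.54, unadjusted p = 0.0214, adjusted p = 0.999) and 0.85 at 21 d. The change of that difference was -1.72 from 7 d to 14 d (adjusted p = 1) and 2.19 from 14 d to 21 d (unadjusted p = 0.0093, adjusted p = 0.617), so a different time course in the genotypes was not shown by the test over all probe sets. Within series 1 the 14 d difference was -1.30, and within series 2 it was -1.49.

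Tfpi rose in WT tissue between 7 d and 14 d on all 4 of its probe sets. The brightest (1451791_at) read 7.99, 8.04 and 8.14 in Mmp13-/- tissue and 7.63, 7.78 and 7.75 in WT tissue at 7 d. At 14 d it read 8.30, 8.33, 8.31 and 8.22 in Mmp13-/- tissue and 8.31, 8.05, 8.33 and 8.32 in WT tissue. At 21 d the Mmp13-/- arrays ran from 8.11 to 8.55 and the WT arrays from 8.15 to 8.55. The 3 WT arrays of 7 d were the lowest of all 22 arrays, the 3 Mmp13-/- arrays of 7 d lay between them and most later arrays, and the genotypes overlapped from 14 d on.

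In WT tissue the 4 Tfpi probe sets rose by 0.53, 0.56, 0.84 and 0.82 (adjusted p = 0.0229, 0.0376, 0.0061 and 0.0161 from limma, for 1451791_at, 1451790_a_at, 1438530_at and 1452432_at), 1.45-fold to 1.79-fold. These were the 4 of 11 member probe sets called in that comparison, in which 1.7% of all probe sets were called and 1.13% as higher. Being probe sets of 1 gene, they count as 1 gene of the 6. In Mmp13-/- tissue the same 4 differences were 0.23, 0.19, 0.27 and 0.31, none of them called (adjusted p = 0.83 to 1). The difference between the genotypes' changes was -0.30, -0.36, -0.57 and -0.51, at an adjusted p of 1 each, and the call in WT tissue alone does not show that the genotypes differed.

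Probe set 1438530_at kept its WT call without any single array. It read 6.91, 7.02 and 6.84 in Mmp13-/- tissue and 6.55, 6.27 and 6.27 in WT tissue at 7 d, and 7.23, 7.29, 7.18 and 7.04 in Mmp13-/- tissue and 7.25, 7.11, 7.15 and 7.26 in WT tissue at 14 d. The number of Tfpi probe sets called fell to 1 without WT 7 d replicate 2, WT 7 d replicate 3 or WT 14 d replicate 3, and to 2 without WT 14 d replicate 1, WT 14 d replicate 4 or Mmp13-/- 14 d replicate 4. Within series 1, where 7 d and 14 d can be compared without the series term, the 4 rises were 0.51, 0.54, 0.81 and 0.73 and all were called.

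**Figure D3:**
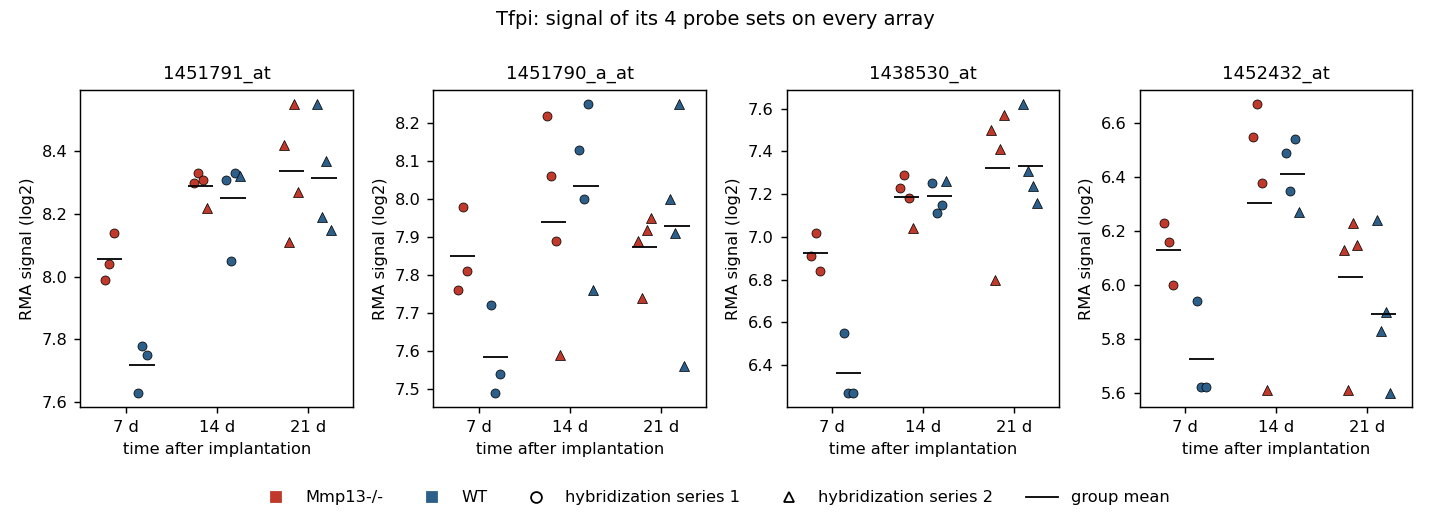
RMA signal (log2) of the 4 Tfpi probe sets on every array at 7, 14 and 21 d, with Mmp13-/- in red to the left of WT in blue, circles for hybridization series 1, triangles for series 2 and lines for group means. On each probe set the 3 WT arrays of 7 d lie below the 3 Mmp13-/- arrays of 7 d, and the genotypes overlap at 14 d and 21 d.

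At 7 d every Mmp13-/- array lay above every WT array on all 4 Tfpi probe sets, the only members whose genotypes did not overlap on that day (4 of 11 probe sets, where 7.98% of all probe sets did not overlap and 3.93% were higher). The differences were 0.34, 0.27, 0.56 and 0.40 for 1451791_at, 1451790_a_at, 1438530_at and 1452432_at, 1.20-fold to 1.47-fold, with unadjusted p values of 0.0131, 0.0697, 0.00244 and 0.0378 from limma. The adjusted p was 1 for each. With 3 arrays a group, an exact permutation test cannot go below p = 0.1, which all 4 gave. At 14 d the differences lay between -0.11 and 0.04 and at 21 d between -0.05 and 0.14.

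The 4 Tfpi probe sets are separate readings of 1 gene and correlated with each other at r = 0.49 to 0.89 over the 22 arrays, which share groups, days and series. Probe sets 1451790_a_at and 1452432_at had lower fitted signals in series 2 (shifts of -0.42 and -0.56), while 1451791_at and 1438530_at had shifts of 0.00 and -0.05. For 1452432_at, Mmp13-/- 14 d replicate 4 read 5.61, against 6.38 to 6.67 on the other Mmp13-/- arrays of 14 d.

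Tfpi2 (1418547_at) had a lower mean in Mmp13-/- tissue at 14 d, short of a call. It read 8.01, 7.99 and 7.62 in Mmp13-/- tissue and 8.10, 7.90 and 7.55 in WT tissue at 7 d. At 14 d it read 7.75, 7.48, 7.38 and 7.43 in Mmp13-/- tissue, against 8.02, 7.98, 8.04 and 7.75 in WT tissue. At 21 d it read 7.67, 7.12, 7.41 and 6.97 in Mmp13-/- tissue and 7.81, 7.31, 6.95 and 7.89 in WT tissue. The 14 d groups touched at 7.75, and those of 7 d and 21 d overlapped over most of their range.

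The Tfpi2 difference was 0.02 at 7 d, -0.44 at 14 d (standard error 0.19, 1.35-fold lower, unadjusted p = 0.0298, adjusted p = 0.999 from limma) and -0.20 at 21 d. It was -0.48 within series 1 and -0.32 within series 2 at 14 d. Tfpi2 and Plat, both with lower means in Mmp13-/- tissue at 14 d, had the closest patterns of any pair of members by brightest probe set (r = 0.76 over the 22 arrays, and 0.58 after group means and series were removed).

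**Figure D4:**
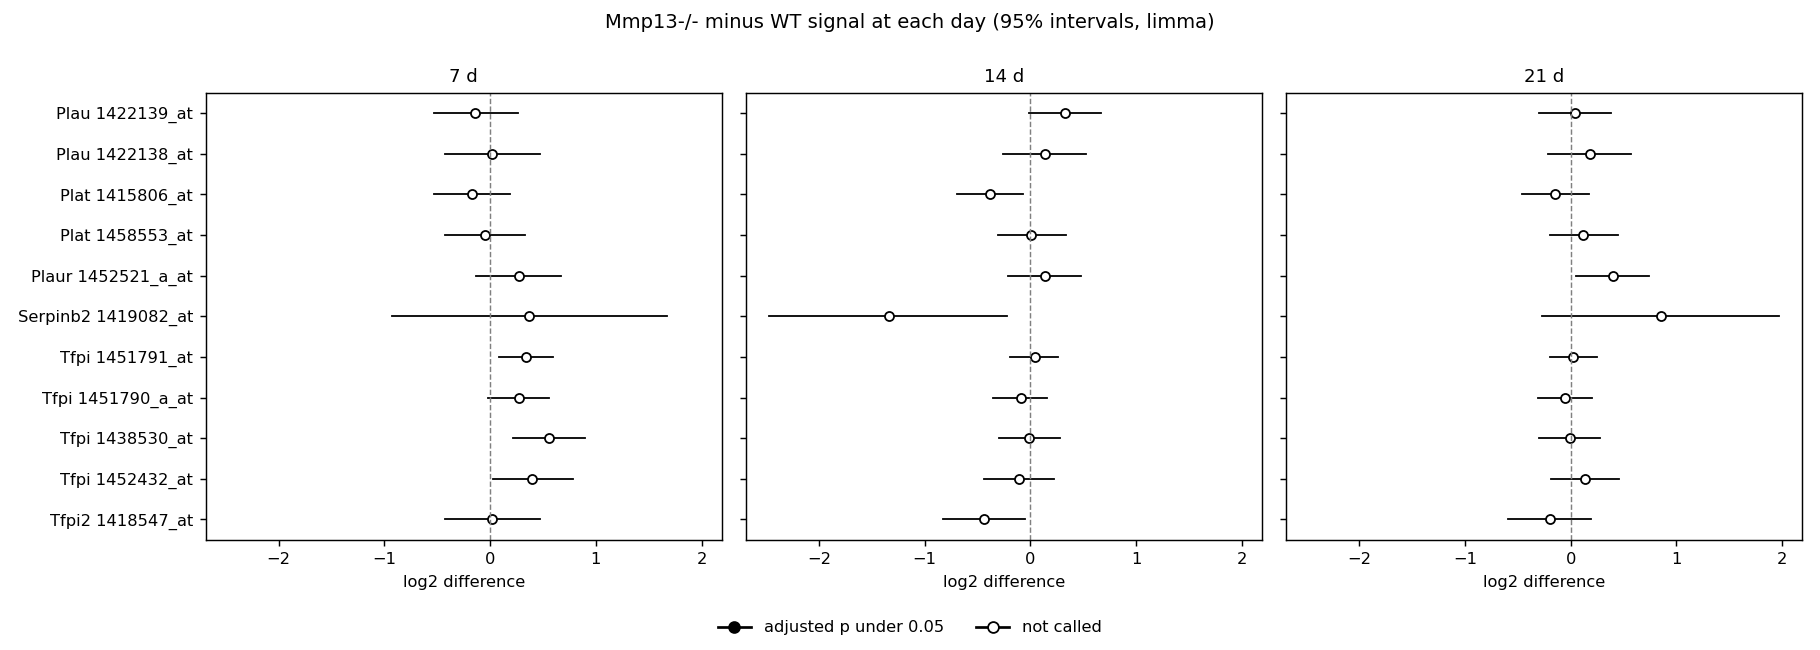
Mmp13-/- minus WT signal (log2) of the 11 member probe sets at 7, 14 and 21 d, with 95% intervals from limma and open points for probe sets not called. The 4 Tfpi probe sets lie at 0.27 to 0.56 at 7 d, Plat, Serpinb2 and Tfpi2 lie at -0.38, -1.34 and -0.44 at 14 d, and Plaur lies at 0.40 at 21 d.

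Over all members, 0 of 11 probe sets were called between genotypes at 7 d, 14 d or 21 d, or averaged over days, by limma. Unadjusted p values under 0.05 were found for 3, 3 and 1 member probe sets at the 3 days and for 3 on average. They came from 1, 3, 1 and 3 genes, and the 3 at 7 d were all of Tfpi. Of all probe sets tested, 0.00888% were called at 7 d, 0.0178% at 14 d, 0.0488% at 21 d and 0.0688% on average, and 2.16%, 3.98%, 11.9% and 6.56% had an unadjusted p under 0.05. At 14 d Plat was the 1 member probe set whose groups did not overlap, against 3.52% of all probe sets, and at 21 d there were 0, against 2.98%. The median member difference was 0.27 at 7 d, -0.01 at 14 d and 0.04 at 21 d, beside medians of -0.01, 0.01 and 0.00 for all probe sets. At 7 d, 4 of the 11 differences were those of Tfpi, at 0.27 to 0.56. The brightest probe sets of Plau, Plat, Plaur, Serpinb2 and Tfpi2 differed by -0.14, -0.17, 0.27, 0.37 and 0.02.

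Between 14 d and 21 d, 0 of 11 member probe sets were called by limma in Mmp13-/- tissue (0.0799% of all probe sets were) and 0 in WT tissue (0.42% were). Unadjusted p values under 0.05 came from 0 members in Mmp13-/- tissue (13.7% of all probe sets) and from 1 in WT tissue, Serpinb2 (14.1%). The 2 tests of a changing genotype difference called no probe set of any gene (0% each). They gave unadjusted p values under 0.05 for 2 members from 7 d to 14 d, both Tfpi, and for 1 from 14 d to 21 d, Serpinb2, where 2.29% and 6.58% of all probe sets had such a p. With a looser rule, an unadjusted p under 0.05 and a log2 difference over 0.5 in size, 1 member probe set each was picked at 7 d (Tfpi 1438530_at, 0.779% of all probe sets), at 14 d (Serpinb2, 0.89%) and between 14 d and 21 d in WT tissue (Serpinb2, 6.39%), and 2 and 1 for the changing genotype difference (1.23% and 2.78%).

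**Figure D5:**
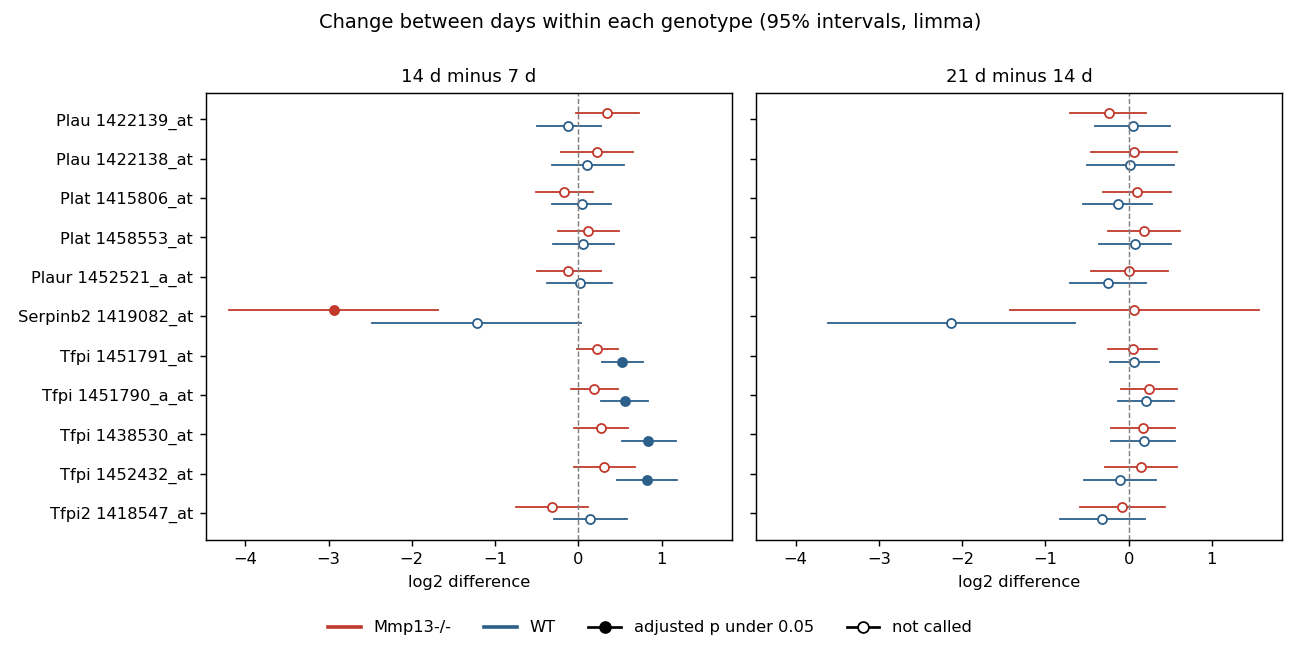
Change of signal (log2) between consecutive days for the 11 member probe sets, in Mmp13-/- tissue (red, upper) and WT tissue (blue, lower), with 95% intervals from limma and filled points called at an adjusted p under 0.05. From 7 d to 14 d Serpinb2 was called in Mmp13-/- tissue at -2.94 and the 4 Tfpi probe sets in WT tissue at 0.53 to 0.84, and no member was called from 14 d to 21 d.

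Markers of other cells moved beside some of these differences, and in RNA of a whole tissue fewer cells of a type and less RNA per cell cannot be told apart. At 14 d, where Plat, Serpinb2 and Tfpi2 had lower means in Mmp13-/- tissue, the mean signal of 8 fibroblast markers ran from 10.96 to 11.23 in Mmp13-/- tissue and from 11.23 to 11.45 in WT tissue. Of these markers 5 of 8 were lower at an unadjusted p under 0.05 and 1 was called, Lum, a collagen-binding proteoglycan (difference -0.94, adjusted p = 0.0274). The mean of 10 keratinocyte markers ran from 3.66 to 3.91 in Mmp13-/- tissue and from 3.85 to 5.69 in WT tissue, with 7 of 10 lower at an unadjusted p under 0.05 and none called. In WT tissue the keratinocyte means were 5.31, 3.97, 5.69 and 3.85 on replicates 1 to 4. Serpinb2 read 9.98, 9.66, 9.14 and 9.81 on the same arrays, and a relation between them was not tested. The mean of 7 neutrophil markers ran from 6.70 to 7.08 in Mmp13-/- tissue and from 7.01 to 7.54 in WT tissue, with 6 of 7 differences negative and none called. The mean of 8 endothelial markers ran from 6.32 to 6.87 in Mmp13-/- tissue and from 6.61 to 7.61 in WT tissue, with 8 of 8 differences negative, a median of -0.37, 1 at an unadjusted p under 0.05 and none called.

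At 7 d, where Tfpi was higher in Mmp13-/- tissue, 8 endothelial markers averaged 6.40 to 7.01 in Mmp13-/- tissue and 5.27 to 6.99 in WT tissue, with 7 of 8 differences positive, a median difference of 0.64 and none called. The low end was WT replicate 1 (5.27), while WT replicates 2 and 3 averaged 6.99 and 6.43. Of the 3 WT arrays, replicate 1 had the highest Tfpi signal on 1451790_a_at (7.72), 1438530_at (6.55) and 1452432_at (5.94), and the lowest on 1451791_at (7.63). Macrophage markers, of a cell type known to make Serpinb2, averaged between 10.15 and 10.72 on all arrays. Skeletal muscle markers varied widely within groups, from 6.25 to 10.18 in Mmp13-/- tissue and from 5.62 to 10.41 in WT tissue at 7 d. The part of these cells in the member differences was not tested.

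Marker lists also moved over the step from 7 d to 14 d, in which members were called. Beside the rise of Tfpi in WT tissue, endothelial markers averaged 6.61 to 7.61 at 14 d and 5.27 to 6.99 at 7 d, with 7 of 8 differences positive, 6 higher at an unadjusted p under 0.05, a median of 1.16 and none called. Keratinocyte markers averaged 3.85 to 5.69 at 14 d and 3.96 to 4.20 at 7 d in WT tissue, with 9 of 10 differences positive, 6 higher and 1 lower at an unadjusted p under 0.05, a median of 0.86 and none called. Of 6 markers of myofibroblasts and smooth muscle, 2 were called higher in WT tissue, the actin-binding Tagln (difference 1.83, adjusted p = 0.00291) and Acta2 (difference 1.14, adjusted p = 0.0371). The median of these 6 was 0.81 in WT tissue and 0.64 in Mmp13-/- tissue, where Tagln alone of the 6 was called (difference 1.88, adjusted p = 0.00502). Of 8 fibroblast markers, 1 was called higher in WT tissue, the growth factor receptor Pdgfra (difference 0.75, adjusted p = 0.00842). Of the 8 fibroblast differences 3 were positive and 5 negative, with a median of -0.05. Macrophage markers averaged 10.33 to 10.53 at 14 d and 10.17 to 10.54 at 7 d in WT tissue. Of their 8 differences 5 were positive, 4 higher and 1 lower at an unadjusted p under 0.05, with a median of 0.17 and none called. Of 6 mast cell markers 1 was called higher in WT tissue, though 5 differences were negative. Of 4 adipocyte markers 2 were lower at an unadjusted p under 0.05, with a median of -0.98. All 5 skeletal muscle differences were positive, with a median of 0.78 and none called. By the unadjusted rule, 5.36% of all probe sets were higher and 4.71% lower.

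Beside the fall of Serpinb2 in Mmp13-/- tissue, fibroblast markers averaged 10.96 to 11.23 at 14 d and 11.17 to 11.38 at 7 d, with 8 of 8 differences negative, 4 lower at an unadjusted p under 0.05 and 1 called, the matrix proteoglycan Dcn (difference -0.48, adjusted p = 0.0128). Neutrophil markers averaged 6.70 to 7.08 at 14 d and 7.16 to 7.59 at 7 d, with 6 of 7 differences negative, 3 lower at an unadjusted p under 0.05, a median of -0.32 and none called. Macrophage markers averaged 10.37 to 10.60 at 14 d and 10.15 to 10.59 at 7 d. Of their 8 differences 5 were positive, 3 higher and 1 lower at an unadjusted p under 0.05, with a median of 0.26 and none called. Of the 10 keratinocyte markers 8 differences were positive, and 1 marker was called lower, Dmkn (difference -2.21, adjusted p = 0.0185). By the unadjusted rule, 3.57% of all probe sets were higher and 3.08% lower in this comparison. Whether these cells had a part in the changes between days was not tested either.

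The wider pathway was read from 46 genes in 5 groups, with 1 probe set each, none of them called between genotypes at any day. The groups were plasminogen and related proteinases (7 genes), other inhibitors (10), receptors (12), fibrin and matrix partners (6), and coagulation and thrombin receptors (11). Cpb2 and F2rl1 had no probe set of their own and were not analysed here. Plasminogen itself (Plg), made mainly by the liver, was dim at a mean of 3.05, under the median of all probe sets, and so were the fibrinogen chains Fga (2.20), Fgb (2.77) and Fgg (2.58). Of the 46 genes, 4 were higher and 0 lower at an unadjusted p under 0.05 at 7 d, 1 higher and 4 lower at 14 d, and 8 higher and 3 lower at 21 d. Of all probe sets, 1.27% were higher and 0.89% lower by that rule at 7 d, 1.76% and 2.22% at 14 d, and 5.77% and 6.15% at 21 d. The median differences were 0.02, -0.06 and 0.04. The smallest unadjusted p at 14 d was that of Vtn, vitronectin, a matrix partner of the urokinase receptor (difference -0.77, unadjusted p = 0.00415, adjusted p = 0.911).

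Among the 11 genes of coagulation and thrombin reception, which include the targets of Tfpi, 3 were higher at an unadjusted p under 0.05 in Mmp13-/- tissue at 7 d. F3, tissue factor itself, averaged 9.17 ± 0.21 in Mmp13-/- tissue and 8.71 ± 0.16 in WT tissue (SD, 3 arrays each), a difference of 0.46 with an adjusted p of 1 from limma. F2r, the main thrombin receptor, averaged 9.35 ± 0.15 against 8.87 ± 0.66 (difference 0.47), and its groups overlapped. Pros1, a cofactor of Tfpi and of activated protein C, averaged 8.31 ± 0.01 against 8.09 ± 0.08 (difference 0.22). Of the 11 differences at 7 d, 9 were positive and 2 negative, with a median of 0.10. F10, the factor X precursor, was 0.24 higher at 7 d (unadjusted p = 0.156) and 0.30 higher on average over days (adjusted p = 0.346). Other genes of this group differed little at 7 d. F7, with a mean signal of 9.38, differed by 0.07 (unadjusted p = 0.713 from limma). The differences of F5, F2 and Thbd were 0.01, -0.01 and -0.11.

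From 7 d to 14 d, 3 of the 46 genes were called in Mmp13-/- tissue and 6 in WT tissue, where 0.628% and 1.7% of all probe sets were called. In Mmp13-/- tissue Gas6, a ligand of TAM receptors related to protein S, rose by 1.18 (adjusted p = 0.00551) and Igf2r, a receptor that also binds plasminogen and the urokinase receptor, rose by 0.49 (adjusted p = 0.0259). Thbd, thrombomodulin, fell by 0.69 (difference -0.69, adjusted p = 0.0386), and these were the 2 rises and 1 fall among the 46 genes. In WT tissue 4 genes rose: Gas6 by 1.45 (adjusted p = 0.000446), F2r by 1.35 (adjusted p = 0.00189), the C1 inhibitor Serping1 by 0.86 (adjusted p = 0.00378) and the collagen receptor Mrc2 by 0.58 (adjusted p = 0.00783).

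In WT tissue Thbd fell by 0.68 (difference -0.68, adjusted p = 0.0222), as did the dim F5 (difference -0.91, adjusted p = 0.038). Serping1, like Tfpi, had a higher mean in Mmp13-/- tissue at 7 d (10.93 against 10.47, difference 0.46, adjusted p = 1) and a difference of 0.07 from 7 d to 14 d in Mmp13-/- tissue. Unlike Tfpi, it was lower in Mmp13-/- tissue at 14 d (10.98 against 11.31). That difference was -0.33 (unadjusted p = 0.0231, adjusted p = 0.999 from limma), against 0.04 for Tfpi 1451791_at. Between 14 d and 21 d none of the 46 genes was called in either genotype. The nearest to a call between genotypes was Serpini1, neuroserpin, an inhibitor of tissue-type activator, which averaged 5.34 ± 0.13 in Mmp13-/- tissue and 4.35 ± 0.39 in WT tissue at 21 d (SD, 4 arrays each), a difference of 0.99 (adjusted p = 0.0656).

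The genes most like each member over the 22 arrays, among 11789 genes with a signal above the median, are given as a description, since all arrays share the groups, days and series. Serpinb2 was closest to Gda (r = 0.936), Ackr3 (0.929) and Cxcl3 (0.926), and Tfpi to Timp3 (0.901), Kif26b (0.888) and Cacna1g (0.883). With group means and series removed, these values were 0.722, 0.775 and 0.814 for Serpinb2 and 0.717, 0.499 and 0.721 for Tfpi. Plat was closest to Loxl1 (0.915), which crosslinks elastin, then Tgfbr2 (0.856) and Ext1 (0.848), and Loxl1 kept an r of 0.935 after the removal. Tfpi2 was closest to Pla1a (0.909), Inpp1 (0.88) and Shisa5 (0.863), and Plaur to Pgam1 (0.826), Uchl5 (0.815) and Katnbl1 (0.795).

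The genes closest to Plau, Cap1 (r = 0.987), Pdia4 (0.983) and Pik3cd (0.982), had an r of 0.692, 0.436 and 0.048 once group means and series were removed, and of 0.722, 0.323 and -0.314 within the 12 arrays of series 1.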

How the data were processed

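The authors labelled and hybridized RNA to Affymetrix mouse genome arrays in 2 series, checked the arrays in the manufacturer's software and normalized them with RMA. The deposited values are log2 signals per probe set with 2 decimals, in 1 table of 45101 rows for the 22 arrays. Neither the RMA version nor a single normalization run for both series is given in the sources used here. The number of arrays limits the precision.

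From these values, only the 64 control probe sets were removed, and dim probe sets were kept. The model (6 group means plus hybridization series, every array) used lmFit and eBayes from limma 3.58.1 in R 4.3.3 (15 residual and 4.57 prior degrees of freedom), with Benjamini-Hochberg adjustment over 45037 probe sets. Single probe sets were also compared by an exact two-sided permutation test, which took no account of the series. Gene names are those of the platform annotation, which gives 1 symbol to 34945 probe sets, several to 932 and none to 9160. A gene of the pathway or marker lists is represented by its probe set with the highest mean. The text names every member, every pathway gene called between days, and selected list genes chosen after their values were seen. The members and lists were chosen with earlier results of these data known.

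Same-numbered arrays of the genotypes did not deviate together, so replicate numbers were not taken to pair the mice. The steps were tested on simulated data. Alternatives covered the series term, the arrays in the fit, a replicate block, scaling, a filter on dim probe sets, array weights, the variance model, the call rule and leaving out each array. Promoters are RefSeq's (GRCm38.p6), and 5 of the 7 members matched.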

Additional observations from a re-analysis of the deposited data

Results flagged for a closer look

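In each of 44 sets of 4 arrays (11 probe sets, 4 groups of 14 d and 21 d) the distance of the end array from its nearest neighbour was set against the whole range by Dixon's criterion, and 6 sets had an array that stood apart. Chance gives about 1 in 20 where the 4 arrays share 1 hybridization series, which those of 14 d do not. For Plau 1422139_at, Mmp13-/- 14 d replicate 4 read 8.59 (others 5.50 to 5.91), WT 14 d replicate 4 read 8.51 (others 5.12 to 5.33), and for Plau 1422138_at Mmp13-/- 14 d replicate 4 read 5.20 (others 4.35 to 4.44). These 3 readings come from the 14 d arrays of hybridization series 2, replicate 4 of Mmp13-/- and of WT tissue. Mmp13-/- 21 d replicate 2 was low for Plau 1422139_at at 8.13 (others 8.54 to 8.62) and for Tfpi 1452432_at at 5.61 (others 6.13 to 6.23). For Tfpi 1451791_at, WT 14 d replicate 2 read 8.05 (others 8.31 to 8.33).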

How the results depend on the processing

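Counts of member probe sets called stayed at 0 for the genotype comparisons at 21 d and on average, and for 21 d minus 14 d in Mmp13-/- tissue, under all alternatives run. At 7 d the count was 1 with array weights (Tfpi 1438530_at, difference 0.61, adjusted p = 0.0445). With a call rule of unadjusted p under 0.05 and a log2 difference over 0.5, it was 1 at 7 d, 1 at 14 d, 1 for 21 d minus 14 d in WT tissue, and 2 and 1 for the changes of the genotype difference. For 14 d minus 7 d in Mmp13-/- tissue the count of 1 became 0 with only the arrays compared and 0 with a trended, robust variance (adjusted p = 0.0604), and ran from 0 to 1 when single arrays were left out. For 14 d minus 7 d in WT tissue the count of 4 became 2 without the series term and 2 with only the arrays compared, and ran from 1 to 4 when single arrays were left out.

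Without the series term, 3 member probe sets were called for 21 d minus 14 d in WT tissue (both of Plau, and Serpinb2), and Plau 1422139_at reversed from -0.24 to 2.08 for the same step in Mmp13-/- tissue. With the replicate block, the counts were 0 for each genotype comparison, 1 for 14 d minus 7 d in Mmp13-/- and 4 in WT tissue, so the block changed no count. Same-numbered arrays correlated at -0.16 to 0.50 (2 of 10 pairs over 0.1), and differently numbered ones at -0.65 to 0.56 (6 of 24). The cause of these changes was not tested. Precision rests on 3 or 4 arrays a group: at 14 d the standard errors of the member differences ran from 0.11 to 0.54, and the second Plat probe set was dim.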
